A study of Mus musculus with 6 samples.

Results

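The 7 transporter genes of mouse liver followed across 6 libraries were Slco1a1, Slco1a4, Slco1b2, Slco2a1, Slco2b1, Slc22a7 and Slc47a1. They were taken from the deposited table by gene name, 7 of its 26123 genes. The livers came from ICR mice, an outbred stock. One group of 3 mice is labelled control; the series' text mentions normal saline. The other group of 3 mice is labelled crizotinib, a lung cancer drug that blocks receptor tyrosine kinases such as MET and ALK, at a stated dose of 300 mg/kg. All mice had 7 days of adaptation, and tissue was taken 1 week after dosing. The sentence on dosing in the series' text is garbled as to which group received the drug, so groups follow each sample's treatment label. Sex, age and dosing route are not stated in the labels, which name no transgene or allele.

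Solute carriers of the SLCO family, also called organic anion transporting polypeptides, sit mainly in the blood-facing membrane of hepatocytes and take up bile acids, conjugated bilirubin, steroid sulfates, thyroid hormones and many drugs without sodium. SLC22A7 (OAT2) is an organic anion uptake transporter of the same membrane. SLC47A1 (MATE1) faces the bile canaliculus and exports organic cations in exchange for protons, so 1 of the 7 genes encodes an exporter and the name "uptake transporters" covers the other 6. In mouse liver Slco1a1 is known as a male-predominant transcript and Slco1a4 as a female-predominant one that is induced through the xenobiotic receptor PXR.

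Slco1a4 transcripts were higher in all 3 crizotinib livers than in any control. Slco1a1, Slc22a7 and Slc47a1 transcripts were far lower in crizotinib replicates 1 and 2, but stood within 2-fold of the control mean in crizotinib replicate 3. Slco1b2, the most abundant of the 7 per length, and the Slco2 genes differed less. With all 6 libraries, 0 of the 7 passed edgeR's quasi-likelihood test at a threshold of 0.05 after Benjamini-Hochberg adjustment over 16492 genes. Of all tested genes 0.340% passed (56), 0.0910% higher and 0.249% lower. At an unadjusted p under 0.05 there were 2 of the 7, Slco1a4 and Slc22a7, beside 15.3% of all tested genes. DESeq2 called 1 of the 7, Slco1a4, beside 5.75% of the genes to which it gave an adjusted p, and limma voom with a weight per library called 4, beside 19.5%. Without crizotinib replicate 3 edgeR also called 4 of the 7, beside 8.83% of all tested genes: Slco1a4 higher, beside 4.11%, and Slco1a1, Slc22a7 and Slc47a1 lower, beside 4.72%. Without both control replicate 1 and crizotinib replicate 3 it called 4, beside 10.3%. With DESeq2 size factors in edgeR, without mitochondrially encoded genes and with limma on log2(FPKM + 0.1) 1 was called, beside 0.370%, 0.367% and 0.503% of all tested genes. No member was called without a filter on low counts (beside 0.214%), with limma on log2(FPKM + 1) (0.291%), or by edgeR with control replicate 2 left out, or likewise replicate 1 or 2 of the crizotinib group (0.0176% each), where 3, 3, 2, 1 and 1 of the 7 had an unadjusted p under 0.05.

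The libraries differed as wholes within each group, which touches every value here. They held between 51123361 and 67947970 counts, and single members between 89 and 38651. Mitochondrially encoded genes took 44.5% of the counts of control replicate 1 and 5.53% to 17.6% of the others. A list of 23 acute-phase genes took 29.3% and 28.5% of the counts of crizotinib replicates 1 and 2, against 4.63% of crizotinib replicate 3 and 1.15% to 4.93% of the controls. Hepatocyte markers (4 genes, Alb among them, all detected in every library) summed to 57471 to 77581 CPM in controls and 21933 to 35425 CPM in crizotinib livers. Kupffer cell markers (9 genes, all detected in every library) summed to 331 to 438 CPM and 35.0 to 61.9 CPM. Of the 9, 4 passed edgeR's test, all lower, beside 0.249% of all tested genes, and of the 4 hepatocyte markers 0 passed. Of the kidney tubule markers only Slc34a1 was measured, at 0 counts in 5 libraries and 0.133 CPM in the sixth. CPM stands for counts scaled to a common library size, here with TMM factors (trimmed mean of M values). In bulk tissue, fewer cells of a type and less RNA per cell cannot be told apart.

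**Figure D1:**
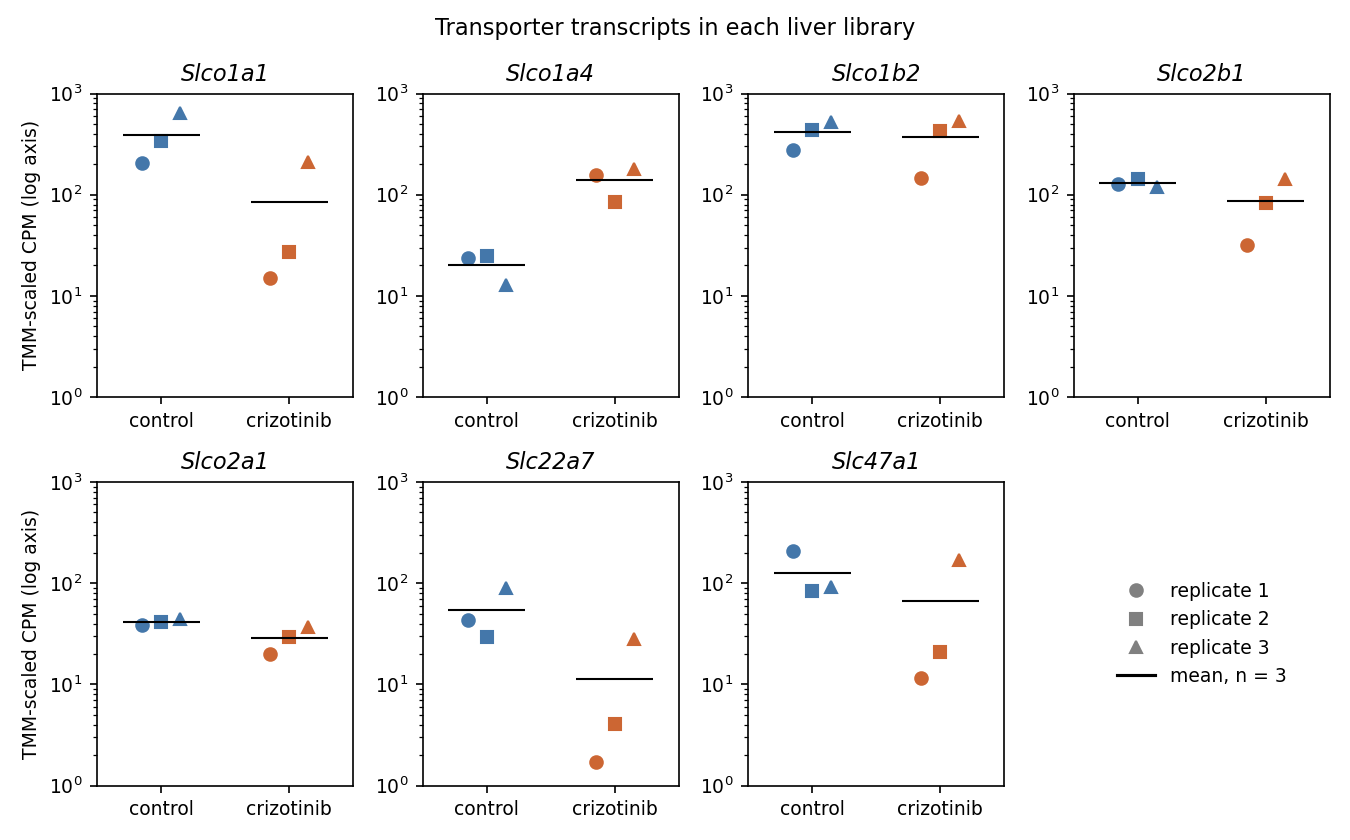
Scaled CPM (log axis) of the 7 genes in each library, with a marker shape per replicate and a line at each group's mean (n = 3). Slco1a4 is higher in all 3 crizotinib libraries, while Slco1a1, Slc22a7 and Slc47a1 are lowest in crizotinib replicates 1 and 2 and near the controls in crizotinib replicate 3.

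Slco1a4 encodes a sinusoidal carrier of organic anions, bile acids and cardiac glycosides. It lies on chromosome 6 from 141805440 to 141856171 on the minus strand (ENSMUSG00000030237, GRCm38). It had 23.8, 24.6 and 12.8 CPM in control replicates 1, 2 and 3, and 155, 84.9 and 180 CPM in crizotinib replicates 1, 2 and 3. The groups did not overlap, and the lowest crizotinib library stood above the highest control; among all tested genes 10.7% were higher without overlap. The mean was 20.4 ± 6.63 CPM in controls and 140.0 ± 49.3 CPM in crizotinib livers (SD, n = 3 each). The log2 fold change was 2.78 ± 0.42 (SE), or 6.87-fold, with a 95% interval of 1.80 to 3.76 and an edgeR adjusted p of 0.0502, just above the threshold. Over 15 other settings the log2 fold change lay between 2.53 and 3.04, the adjusted p lay between 6.33e-08 and 0.278, and 7 settings passed. Crizotinib replicate 3 did not decide the size, since the log2 fold change without it was 2.54 ± 0.40 (edgeR adjusted p = 0.0149). The acute-phase share of counts was 29.3%, 28.5% and 4.63% in crizotinib replicates 1, 2 and 3, and its part in the Slco1a4 values was not tested.

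Slco1a1 encodes the neighbouring carrier of the same subfamily, which takes up bile acids, steroid conjugates and sulfobromophthalein. It lies on chromosome 6 from 141907282 to 141946962 on the minus strand (ENSMUSG00000041698). It had 205, 338 and 637 CPM in control replicates 1, 2 and 3, and 15.2, 27.1 and 211 CPM in crizotinib replicates 1, 2 and 3. Crizotinib replicates 1 and 2 were 25.9-fold and 14.5-fold below the control mean, and crizotinib replicate 3 was 1.87-fold below it, just above control replicate 1. The groups therefore overlapped. The log2 fold change was -2.22 ± 0.98 (SE), with a 95% interval of -4.47 to 0.03 (edgeR adjusted p = 0.332). Without crizotinib replicate 3 it was -4.23 ± 0.63, or 18.7-fold lower (edgeR adjusted p = 0.0131). Without crizotinib replicate 1 it was -1.73, and without crizotinib replicate 2 it was -1.79 (edgeR adjusted p = 0.624 and 0.720). Over all 15 other settings it lay between -4.55 and -1.68, the adjusted p ran from 0.00724 to 0.720, and 3 settings passed. Those were limma voom with library weights, edgeR without crizotinib replicate 3, and edgeR without both that library and control replicate 1. DESeq2 over all 6 libraries gave an adjusted p of 0.0547, above the threshold.

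Slco1b2 is the mouse counterpart of the human OATP1B transporters, which take up bilirubin glucuronide, bile acids and statins. It lies on chromosome 6 from 141629518 to 141686646 on the plus strand (ENSMUSG00000030236). It had 279, 431 and 528 CPM in the controls and 145, 428 and 534 CPM in crizotinib replicates 1, 2 and 3. Only crizotinib replicate 1 stood below every control, and crizotinib replicate 3 stood above every control. The log2 fold change was -0.16 ± 0.53 (SE; edgeR adjusted p = 0.903). Its 95% interval of -1.39 to 1.07 spans changes of over 2-fold in both directions, so a difference of that size was not excluded. The direction turned without control replicate 3 (0.05) and without crizotinib replicate 1 (0.22).

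These 3 genes lie in 1 cluster on chromosome 6. In the GENCODE annotation the 6 named Slco1 genes span 799 kb, and 51.1 kb separate Slco1a4 from Slco1a1, both on the minus strand. The other 3 genes of the cluster were at or near 0. Slco1c1, a thyroid hormone carrier of the brain barrier, had at most 45 counts in a library, Slco1a6 at most 23 and Slco1a5 at most 4, and none passed the filter on low counts. Next to Slco1a1 lies Gm6614, a protein-coding gene with a predicted-gene symbol that was added for its position after values were seen. It had 1.11, 1.18 and 20.2 CPM in the controls and 0.251, 0.261 and 2.35 CPM in crizotinib livers (log2 fold change -2.96 ± 1.36 SE, edgeR adjusted p = 0.351). Adjacent genes thus stood on opposite sides of the controls in crizotinib replicates 1 and 2: Slco1a4 above them, and Slco1a1 and Gm6614 below. Of the 50-base stretches of the Slco1a1 transcript examined, 2.26% also occur in a transcript of another gene, most of them in Slco1a4, and 2.73% of those of Slco1a4 do, most of them in Slco1a5. For Slco2a1, on chromosome 9, the share was 0.778%, most of it with Abcb9. Reads from those stretches could be assigned to the wrong gene, and none of the 50-base stretches of Slco1b2, Slco2b1, Slc22a7 or Slc47a1 were shared.

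**Figure D2:**
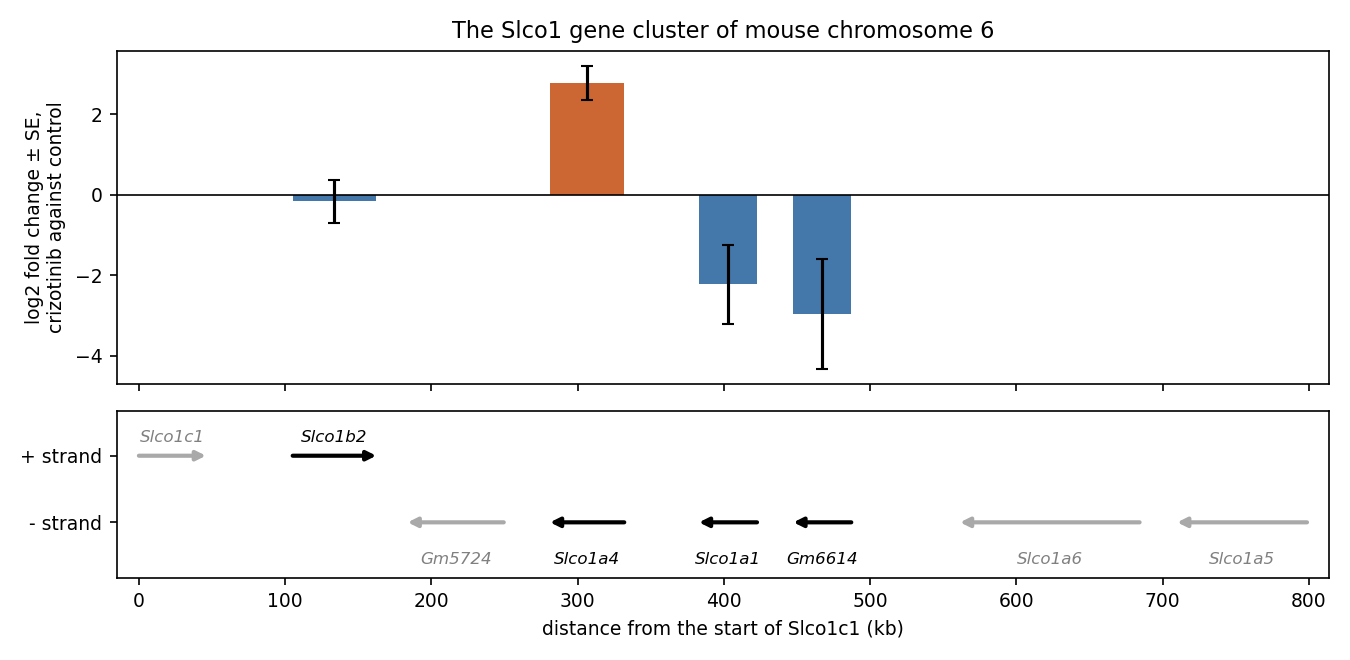
The Slco1 cluster drawn to scale, with distance from the start of Slco1c1 in kb on the x axis. Bars give the log2 fold change of each tested gene with its SE, and arrows give each gene's extent and strand, grey where the gene was not tested; Slco1a4 stands at 2.78 beside Slco1a1 at -2.22 and Gm6614 at -2.96.

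The bases before the start sites of the 3 expressed cluster genes are shown because these neighbours differed in direction. Each run is the 250 bases before the RefSeq start (GRCm38.p6), 5′ to 3′ on the gene's own strand: chr6:141946963-141947212 on the minus strand for Slco1a1, chr6:141856221-141856470 on the minus strand for Slco1a4 and chr6:141629268-141629517 on the plus strand for Slco1b2. Capitals mark matches, on either strand, to 5 motifs. They were TATAAA for a TATA box, GTTAAT for an HNF1 half-site, AGGTCA for a nuclear receptor half-site, its variant form AGTTCA, and TTCNNNGAA for a STAT5 site.
Slco1a1: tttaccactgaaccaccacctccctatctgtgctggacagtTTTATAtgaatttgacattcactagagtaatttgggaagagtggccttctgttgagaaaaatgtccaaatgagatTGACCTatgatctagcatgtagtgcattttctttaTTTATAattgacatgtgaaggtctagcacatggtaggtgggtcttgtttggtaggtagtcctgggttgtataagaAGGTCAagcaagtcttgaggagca
Slco1a4: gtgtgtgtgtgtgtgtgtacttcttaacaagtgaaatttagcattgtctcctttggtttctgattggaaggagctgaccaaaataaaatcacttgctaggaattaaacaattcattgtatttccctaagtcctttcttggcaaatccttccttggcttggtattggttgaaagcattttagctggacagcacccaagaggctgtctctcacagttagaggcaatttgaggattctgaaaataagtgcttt
Slco1b2: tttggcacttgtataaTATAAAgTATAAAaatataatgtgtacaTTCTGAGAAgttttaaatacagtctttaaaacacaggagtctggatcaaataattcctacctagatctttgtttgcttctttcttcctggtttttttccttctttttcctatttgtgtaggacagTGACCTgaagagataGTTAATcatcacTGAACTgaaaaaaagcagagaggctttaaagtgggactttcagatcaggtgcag
The Slco1a1 run held TATAAA and AGGTCA, each at 2 places, and the AGGTCA nearest the start lay 24 to 19 bases before it. The Slco1a4 run held none of the 5 motifs. The Slco1b2 run held all 5, with GTTAAT between 66 and 61 bases before the start. No match overlapped one to another motif. Of 32851 RefSeq promoter windows of the same length, 12.4% held TATAAA, 6.43% GTTAAT, 14.0% AGGTCA, 11.8% AGTTCA and 7.02% TTCNNNGAA. A match describes letters and is not a bound site. Promoter windows were given for 5 of the 7 genes.

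Slco2b1 encodes a carrier of steroid sulfates and drugs that is also expressed outside the liver. It lies on chromosome 7 from 99657804 to 99711340 on the minus strand (ENSMUSG00000030737). It had 126, 143 and 119 CPM in the controls and 32.0, 83.2 and 143 CPM in crizotinib replicates 1, 2 and 3. Crizotinib replicates 1 and 2 stood below every control and crizotinib replicate 3 slightly above the highest one. Its log2 fold change was -0.59 ± 0.50 (SE), with a 95% interval of -1.74 to 0.57 (edgeR adjusted p = 0.610). Without crizotinib replicate 3 it was -1.18 ± 0.44 (edgeR adjusted p = 0.134, and between 0.130 and 0.937 over all 15 other settings). It overlaps 2 antisense genes, which summed to at most 68 counts in a library.

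Slco2a1 encodes the prostaglandin transporter, which is prominent in endothelial cells and clears prostaglandins from blood. It lies on chromosome 9 from 102988712 to 103096002 on the plus strand (ENSMUSG00000032548). It had 38.8, 41.8 and 44.4 CPM in the controls and 20.0, 29.7 and 37.3 CPM in crizotinib replicates 1, 2 and 3. In CPM the groups did not overlap, although crizotinib replicate 3 and control replicate 1 were close. Among all tested genes 10.3% were lower without overlap in CPM. In FPKM the Slco2a1 groups overlapped, with 3.03 in crizotinib replicate 3, and 1.71 and 2.93 in control replicates 1 and 3. Its log2 fold change was -0.52 ± 0.29 (SE), with a 95% interval of -1.19 to 0.15 (edgeR adjusted p = 0.436). Sinusoidal endothelial markers, 10 genes detected in every library, summed to 87.7 to 228 CPM in controls and 54.0 to 81.1 CPM in crizotinib livers, and their part in the Slco2a1 values was not tested.

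Slc22a7 encodes OAT2, an anion transporter of the hepatocyte that carries cyclic GMP, prostaglandins and other small anions. It lies on chromosome 17 from 46432183 to 46438457 on the minus strand (ENSMUSG00000067144). It had 43.8, 29.2 and 88.9 CPM in the controls and 1.72, 4.02 and 27.9 CPM in crizotinib replicates 1, 2 and 3. In CPM all crizotinib libraries were below every control, but crizotinib replicate 3 missed the lowest control by little. In FPKM crizotinib replicate 3 (14.6) stood above control replicate 1 (12.5), so the groups overlapped. FPKM is relative to the library's total, and 44.5% of the counts of control replicate 1 were mitochondrially encoded. Crizotinib replicates 1 and 2 were 31.4-fold and 13.4-fold below the control mean, and crizotinib replicate 3 was 1.94-fold below it. Over all libraries the log2 fold change was -2.27 ± 0.96 (SE; unadjusted p = 0.0459, edgeR adjusted p = 0.318). Without crizotinib replicate 3 it was -4.24 ± 0.66, or 19.0-fold lower (edgeR adjusted p = 0.0141). Without crizotinib replicate 1 it was -1.76, and without crizotinib replicate 2 it was -1.85 (edgeR adjusted p = 0.571 and 0.703). Over all 15 other settings it lay between -4.38 and -1.69, the adjusted p ran from 0.00689 to 0.703, and 3 settings passed. The passing settings were the same as for Slco1a1, and DESeq2 over all 6 libraries gave an adjusted p of 0.0520, above the threshold.

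Slc47a1, which encodes the canalicular exporter MATE1, lies on chromosome 11 from 61343401 to 61378345 on the minus strand (ENSMUSG00000010122). It had 207, 84.7 and 90.8 CPM in the controls and 11.5, 21.0 and 169 CPM in crizotinib replicates 1, 2 and 3. Crizotinib replicates 1 and 2 were 11.1-fold and 6.07-fold below the control mean, while crizotinib replicate 3 was 1.33 times that mean and lay within the control range. The log2 fold change over all libraries was -0.92 ± 0.93 (SE), with a 95% interval of -3.07 to 1.23 (edgeR adjusted p = 0.672). Without crizotinib replicate 3 it was -2.99 ± 0.56, or 7.97-fold lower (edgeR adjusted p = 0.0241). The adjusted p lay between 0.0162 and 0.945 over the 14 other settings that gave one. Without crizotinib replicate 1 the log2 fold change was -0.42, and without crizotinib replicate 2 it was -0.48 (edgeR adjusted p = 0.935 and 0.945).

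**Figure D3:**
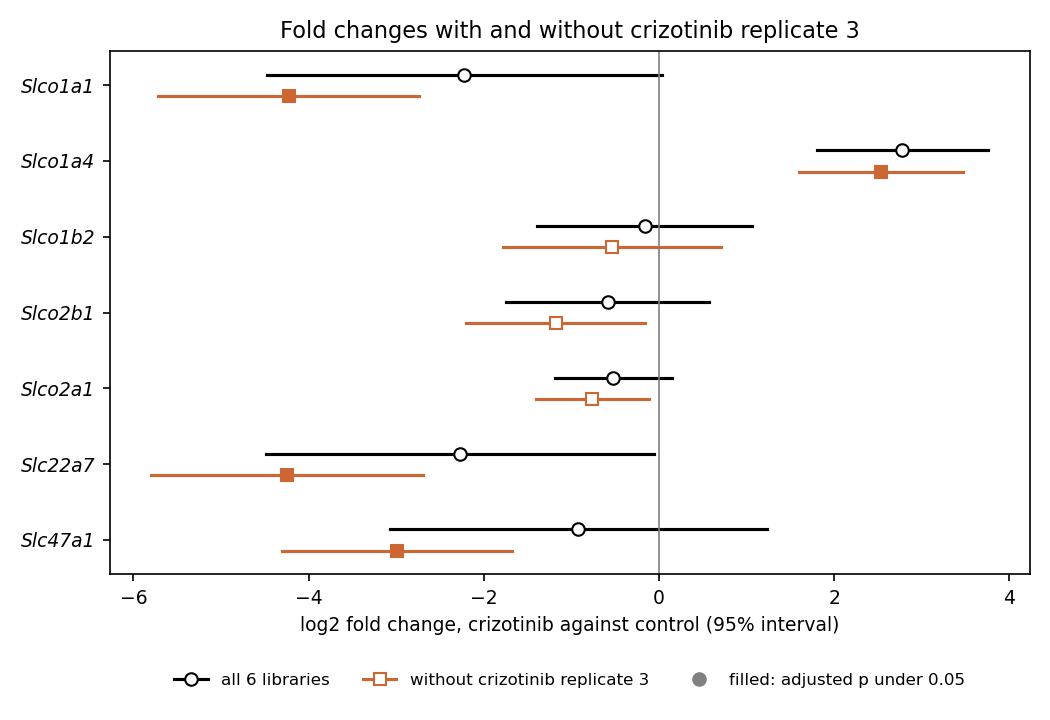
Log2 fold change of each gene with its 95% interval from edgeR, over all 6 libraries (circles) and without crizotinib replicate 3 (squares); filled symbols passed the adjusted threshold. No circle is filled, and 4 squares are: Slco1a1, Slco1a4, Slc22a7 and Slc47a1.

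In CPM the groups did not overlap for 3 of the 7 genes (Slco1a4, Slco2a1 and Slc22a7), beside 21.0% of all tested genes. In FPKM, a measure described below, the groups overlapped for Slco2a1 and Slc22a7 but not for Slco1a4. The Slc22a7 overlap was with control replicate 1 alone, and 44.5% of the counts of that library were mitochondrially encoded. Apart from Slco1a4, the genes shared an order of the 3 crizotinib libraries, from replicate 1 (lowest) to replicate 2 to replicate 3, while the order of the controls differed between genes. Crizotinib replicate 1 was the lowest of the 6 libraries for 6 of the 7, as for 21.0% of all tested genes, and crizotinib replicate 2 was above crizotinib replicate 1 for the same 6, as for 49.2% of all tested genes. Crizotinib replicate 3 was within 2-fold of the control mean for 6 of the 7, as for 82.0% of all tested genes. Slco1a1, Slco2b1 and Slc47a1 were below every control in crizotinib replicates 1 and 2 and not in crizotinib replicate 3, a pattern of 14.9% of all tested genes. Crizotinib replicates 1 and 2, where Slco1a1, Slc22a7 and Slc47a1 were far below the control mean, had acute-phase shares of 29.3% and 28.5%. In both of these livers Slco1a4 was above every control, and Slco1b2 was within the control range in crizotinib replicate 2. The part of the acute-phase genes, or of what moves with them, in these values was not tested.

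The levels of different genes were compared per length, as FPKM (sequenced fragments relative to transcript length and to the library's total). In controls the order was Slco1b2 (76.4 ± 36.9 FPKM), Slco1a1 (68.1 ± 42.6), Slc47a1 (29.7 ± 6.39), Slc22a7 (22.1 ± 13.8), Slco2b1 (19.3 ± 7.43), Slco1a4 (2.79 ± 1.39) and Slco2a1 (2.72 ± 0.918; all SD, n = 3). Of neighbours in that order only Slco2b1 and Slco1a4 had ranges that did not overlap. In crizotinib livers Slco1b2 was again first (74.7 ± 45.9 FPKM) and Slco1a4 stood second (21.7 ± 9.56), ahead of Slc47a1 (21.25 ± 29.3) and Slco1a1 (17.1 ± 23.3). Slco2b1 (14.6 ± 10.9), Slc22a7 (5.67 ± 7.71) and Slco2a1 (2.12 ± 0.839) followed, and the ranges of all neighbours overlapped. The FPKM values were not rescaled here, and 44.5% of the counts of control replicate 1 were mitochondrially encoded.

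The makeup of the 5 Slco transcripts differed between the groups. Slco1a1 made up 31.5%, 35.1% and 47.7% of their summed FPKM in control replicates 1, 2 and 3, and 4.53%, 4.23% and 19.7% in crizotinib replicates 1, 2 and 3. Slco1a4 made up 0.785% to 3.01% in controls and 38.2%, 10.9% and 13.8% in crizotinib replicates 1, 2 and 3. The ratio of Slco1a1 to Slco1a4 was 10.5, 16.7 and 60.8 in the controls and 0.119, 0.388 and 1.42 in the crizotinib livers. The ratios of the groups did not overlap, crizotinib replicate 3 included; they restate the levels above and were not tested. Slco1b2 made up 42.3% to 47.9% in controls and 46.5%, 71.6% and 53.4% in crizotinib replicates 1, 2 and 3.

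**Figure D4:**
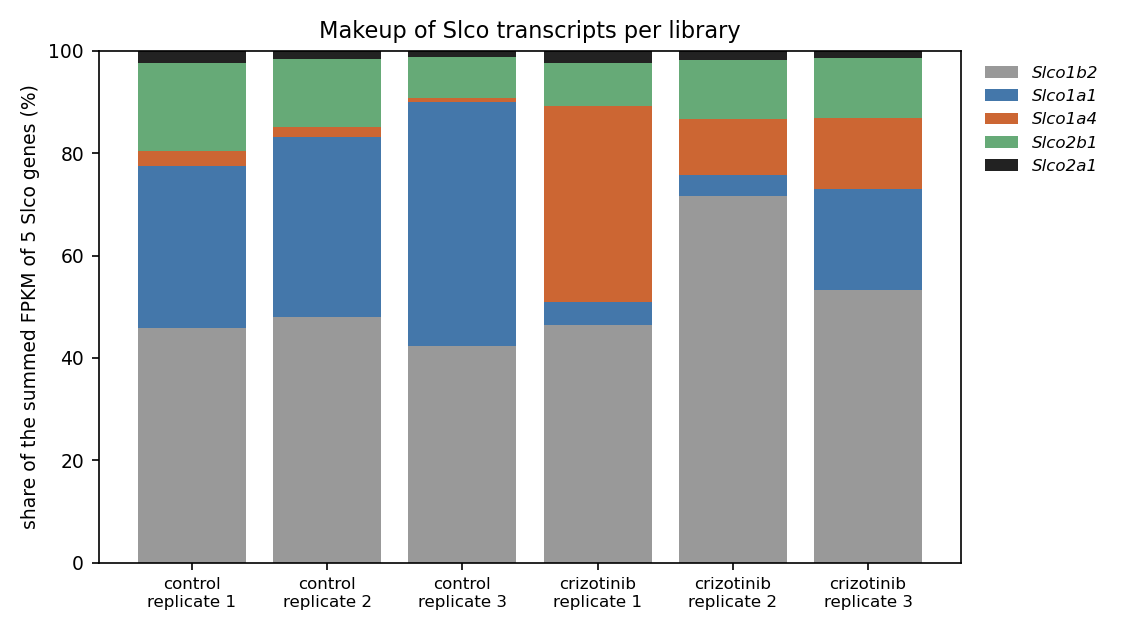
Share of the summed FPKM of Slco1a1, Slco1a4, Slco1b2, Slco2a1 and Slco2b1 held by each gene, with 1 bar per library. The Slco1a1 share is 31.5% to 47.7% in controls and at most 19.7% in crizotinib libraries, and the Slco1a4 share is at most 3.01% in controls and at least 10.9% in crizotinib libraries.

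Other transporters of the SLCO, SLC22, SLC47 and SLC10 families were read from a list of 38 genes, of which 27 were in the table and 19 passed the filter on low counts. By edgeR 0 of the 19 passed the threshold with all 6 libraries, beside the 0.340% of all genes, and 2 had an unadjusted p under 0.05. DESeq2 called 0 of the list (4 at an unadjusted p under 0.05) and limma voom 5, beside 5.75% and 19.5% of all genes. The median log2 fold change was -0.05, with 9 above 0 and 10 below, beside a median of all tested genes of -0.00. Slc22a5, the carnitine transporter OCTN2, had 8.77, 12.3 and 12.0 CPM in the controls and 21.9, 40.9 and 15.3 CPM in crizotinib livers, without overlap (log2 fold change 1.24 ± 0.39 SE, edgeR adjusted p = 0.203). Slc22a17, a receptor for lipocalin-bound iron, had 1.71, 1.41 and 0.989 CPM and then 0.579, 0.372 and 0.476 CPM (log2 fold change -1.52 ± 0.48 SE, edgeR adjusted p = 0.204). Slc22a28 and Slc10a2, the ileal bile acid transporter, had log2 fold changes of -2.14 ± 0.99 and 0.69 ± 0.39 (SE; edgeR adjusted p = 0.356 and 0.438).

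Some further transporters were named after their values were seen. Slc10a1, the sodium-dependent bile salt carrier NTCP of hepatocytes, had 300.5, 694 and 627 CPM in the controls and 190, 260 and 651 CPM in crizotinib replicates 1, 2 and 3. In CPM crizotinib replicates 1 and 2 stood below every control and crizotinib replicate 3 within their range. In FPKM crizotinib replicate 2 (105) stood above control replicate 1 (81.7), of whose counts 44.5% were mitochondrially encoded. The log2 fold change was -0.56 ± 0.57 (SE; edgeR adjusted p = 0.674). Without crizotinib replicate 3 edgeR called 4 of the 19, beside 8.83% of all tested genes: Slc22a5 higher, and Slc22a18, Slc22a28 and Slc22a30 lower. Slc22a30 had 154, 46.2 and 182 CPM in the controls and 4.65, 5.90 and 95.6 CPM in crizotinib replicates 1, 2 and 3.

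**Figure D5:**
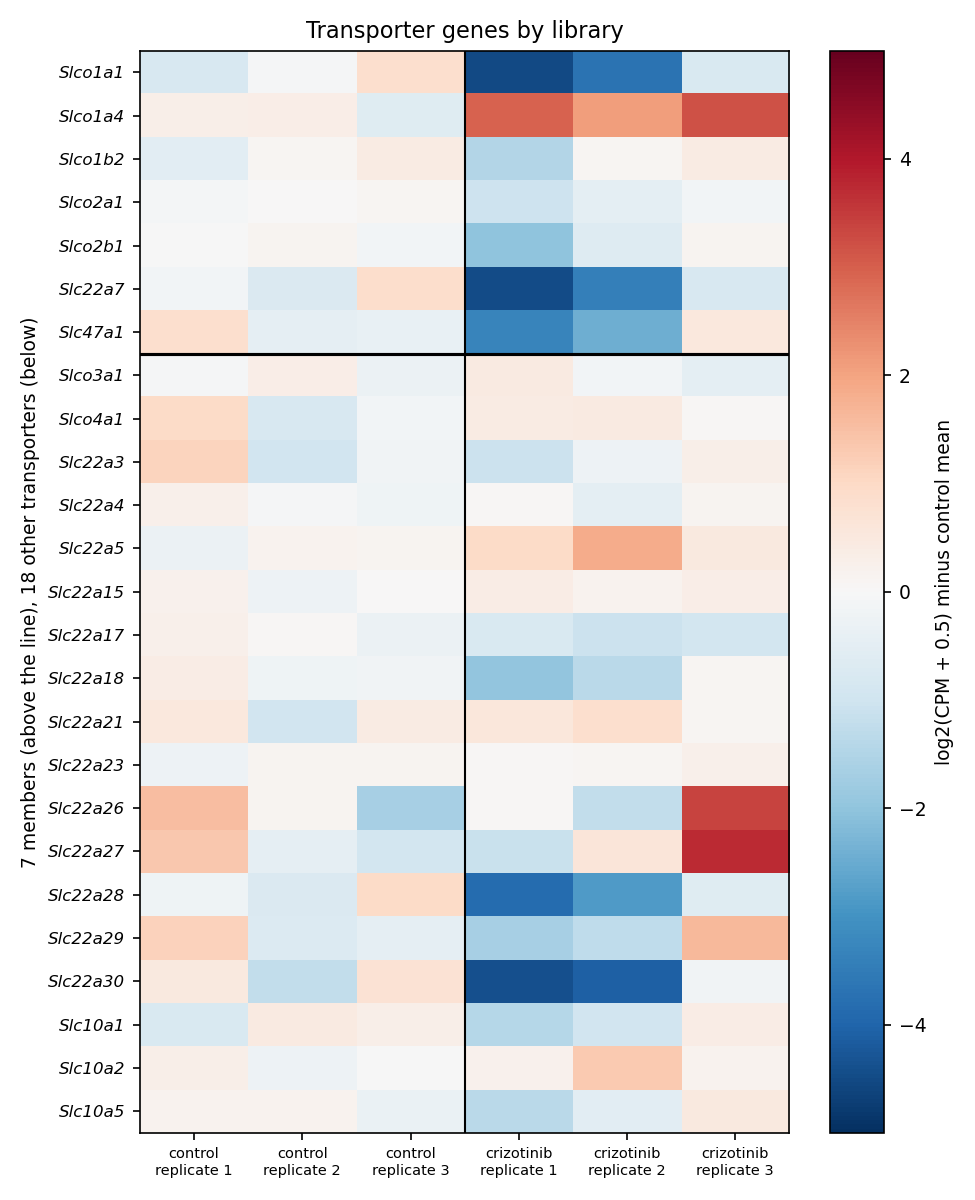
Difference of log2(CPM + 0.5) from the control mean in each library (colour) for the 7 members, above the line, and other tested transporters, below it. Crizotinib replicates 1 and 2 are low for Slco1a1, Slc22a7, Slc47a1, Slc22a28 and Slc22a30, while crizotinib replicate 3 is near the controls for these and high for Slco1a4.

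A list of 25 genes, all tested, joined regulators of hepatic transporter genes with growth hormone signalling genes, Socs2 and Igf1 among them. By edgeR 0 of the 25 passed the threshold, and 3 had an unadjusted p under 0.05, all lower. Of all tested genes 15.3% had one in either direction. The median log2 fold change of the list was -0.22. DESeq2 called 1, Ppara, beside 5.75% of all genes, and limma voom called 7, beside 19.5%. Ppara, the fatty acid receptor, had 19.4, 24.5 and 19.5 CPM in the controls and 7.43, 9.83 and 11.4 CPM in crizotinib livers, without overlap (log2 fold change -1.14 ± 0.26 SE, edgeR adjusted p = 0.135). Socs2 and Bcl6, a feedback target and a repressor in growth hormone signalling, had log2 fold changes of -1.20 ± 0.47 and -1.15 ± 0.48 (SE; edgeR adjusted p = 0.285 and 0.315). Nr0b2, the bile-acid-induced repressor SHP, had 52.8, 25.0 and 52.0 CPM in the controls and 9.92, 10.0 and 34.4 CPM in crizotinib replicates 1, 2 and 3. Nr1i2, which encodes PXR and was named after its values were seen, had 92.8, 64.8 and 42.8 CPM and then 49.5, 68.5 and 57.4 CPM, with overlapping groups. Its relative Nr1i3 (CAR), likewise named afterwards, had 627, 287 and 284 CPM and then 74.2, 126 and 348 CPM, low in crizotinib replicates 1 and 2.

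The genes most like each member were sought among 4043 tested genes with a mean of at least 5 FPKM, by Pearson's r of log2(CPM + 0.5) over the 6 libraries, with no test. So many genes over so few libraries leave r high by selection alone. Nearest to Slco1a4 were Cbs, a transsulfuration enzyme (r = 0.986), and Kpnb1, a nuclear import receptor (r = 0.976). Cbs had 137, 154 and 102 CPM in the controls and 257, 227 and 269 CPM in crizotinib livers. Its groups did not overlap, which its selection for likeness to Slco1a4 favours, and 10.7% of all tested genes were higher without overlap. Nearest to Slco1a1 were Tmprss6, Mettl7a1 and Cat, the last encoding catalase (r = 0.992, 0.992 and 0.988). Nearest to Slc22a7 were Fbxo3, Fdx1 and Tsc22d1 (r = 0.998, 0.992 and 0.992). Nearest to Slc47a1 were Mrpl27, Haao and Slc22a18 (r = 0.996, 0.995 and 0.995). Slc16a12, Paqr9 and Etfrf1 were nearest to Slco1b2 (r between 0.982 and 0.992). Proz, Akr1d1 and Polr2k were nearest to Slco2b1 (r between 0.985 and 0.994), and Acsf2, Il1rap and Arl6ip1 to Slco2a1 (r between 0.991 and 0.996).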

How the data were processed

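Liver RNA of 6 mice was sequenced with a SMARTer mRNA-seq kit, per the labels' protocols. The deposited table gave counts and FPKM for every gene, per the file headers. The deposited counts were whole and unscaled, and the authors had scaled FPKM by gene length and library total. The labels name no aligner, counting tool, annotation or strand setting. For 89.6% of 26060 matched identifiers both ends equalled those in GENCODE (GRCm38).

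Each mouse was 1 replicate. TMM factors scaled the counts, which were filtered with filterByExpr (minimum count 10, minimum total 15). The quasi-likelihood test of edgeR 4.0.16 (R 4.3.3) compared the groups, two-sided, Benjamini-Hochberg adjusted over 16492 genes, threshold 0.05. The common biological coefficient of variation was 0.470. The steps were tested on simulated counts. Alternatives were DESeq2 1.42.0, limma 3.58.1 (voom with library weights, log2 FPKM), other scaling and filters, a replicate block and left-out libraries. The labels state 3 mice per group, so the p-values weigh the group difference against the spread between mice. Each mouse gave 1 library, so differences between mice and between libraries cannot be told apart.

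The members and lists were chosen with earlier results of these data known. The genes named were all members, the 4 smallest p of the transporter and regulator lists, the Slco1 cluster and the 3 genes most correlated with each member; exceptions are stated, and some genes the rule named or the lists held are not reported here.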

Additional observations from a re-analysis of the deposited data

How the results depend on the processing

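Over all genes, 56 were called. The count was 1058 with DESeq2, 3217 with limma voom and library weights, 1718 without both control replicate 1 and crizotinib replicate 3, and 0 to 1504 with 1 library left out. Leaving out control replicate 1 gave 0 by edgeR (1985 at an unadjusted p under 0.05), as did control replicate 3 (1705). Leaving out control replicate 2 gave 3, crizotinib replicate 1 also 3, crizotinib replicate 2 also 3, and crizotinib replicate 3 gave 1504. Of the 7 transporter genes 0 were called; the count was 1 with DESeq2, with DESeq2 size factors in edgeR, without mitochondrially encoded genes and with limma on log2(FPKM + 0.1), 4 with limma voom and without both libraries, and 0 to 4 with 1 library left out, 4 being without crizotinib replicate 3. Of the other transporters 0 were called, 5 with limma voom, 4 without both libraries and 0 to 4 with 1 left out. The Slco1b2 log2 fold change of -0.16 turned to 0.05 without control replicate 3 and 0.22 without crizotinib replicate 1, and lay between -0.54 and 0.22 with 1 library left out; the other 6 kept their sign in every setting. DESeq2 gave Slc47a1 no adjusted p. With the replicate number as a block edgeR called 0 genes (2068 at an unadjusted p under 0.05) and 0 of the 7. Nothing in the labels says that equal numbers share a cage or day, so the numbers were not taken as pairs. Same-numbered libraries deviated together at r = -0.141, 0.238 and -0.0837, and libraries of unlike number at r from -0.27 to 0.262. The causes were not tested. With 3 mice per group and libraries that differ this much, the 95% interval of each of the 7 spans more than 2-fold.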

Other observations

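Slc22a26 and Slc22a27 are neighbouring genes of the organic anion transporter family on chromosome 19, and how far their reads can be told apart was not tested. Both were named after their values were seen. Slc22a26 had 33.6, 12.2 and 3.21 CPM in the controls and 11.8, 4.45 and 120.3 CPM in crizotinib replicates 1, 2 and 3. Slc22a27 had 2.99, 0.520 and 0.231 CPM in the controls and 0.135, 1.56 and 17.7 CPM in crizotinib replicates 1, 2 and 3. Both were thus highest in crizotinib replicate 3, the library in which Slco1a4 was also highest (180 CPM). In crizotinib replicate 1 Slco1a4 was nearly as high (155 CPM), but Slc22a27 was at its lowest and Slc22a26 below its control mean. The log2 fold changes of Slc22a26 and Slc22a27 were 1.48 ± 1.21 and 2.39 ± 1.51 (SE, edgeR adjusted p = 0.592 and 0.489). Both turned without crizotinib replicate 3, to -1.04 and -0.56 (edgeR adjusted p = 0.487 and 0.810).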
